A study of Caenorhabditis elegans with 9 samples.

Results

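Larvae in which Wnt signaling had been overactivated were compared with the wild-type strain N2 of Caenorhabditis elegans, which carries no tag, on Affymetrix C. elegans genome arrays. All 3 Wnt overactivation arrays and all 3 N2 arrays entered, of 9 arrays in the series, and every probe set other than the array controls was tested, 22548 in all. The Wnt overactivation strain is deIs10; huIs1 in a dpy-20(e1282); unc-30(e191) background. deIs10 carries 3xFLAG::pab-1 under the bar-1 enhancer with unc-30(+) and ajm-1::gfp, and huIs1 carries hsp-16.2::delNTbar-1 with dpy-20(+). N2 has none of these transgenes and neither mutation, so the effects of overactive Wnt signaling, of the tag and of the strain background cannot be told apart in this comparison. Animals of both groups were grown for 26 h at 20 degrees C from synchronized L1 larvae, heat-shocked for 30 min at 37 degrees C and recovered for 1 h, which brought them to the L2 to L3 stage. The remaining 3 arrays came from deIs10; deIs26 (Wnt underactivation), in which heat shock drives delNTpop-1. They entered the fit for the spread, and their values are given beside some genes. Both comparisons with N2 share the N2 arrays.

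In the canonical Wnt pathway, signaling keeps the beta-catenin BAR-1 from being degraded, and BAR-1 works with the TCF factor POP-1 to turn on target genes. BAR-1 without its amino terminus escapes degradation. Seam cells are a row of lateral epidermal cells that divide like stem cells and help to make the cuticle, and the vulval precursor cells are ventral epidermal cells that give rise to the vulva. In mRNA tagging, a FLAG-tagged poly(A)-binding protein made in chosen cells is cross-linked to mRNA and pulled down. N2 has no tagged protein to pull down, and under the methods its signal is whatever RNA the same procedure recovered without it. The labels also mention total RNA, and which applies to these arrays was not settled.

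The 9 arrays were on a common scale, log2 of the robust multi-array average (RMA) signal, on which a difference of 1 is a 2-fold change. Over all probe sets, pairs of Wnt overactivation arrays correlated at 0.956 to 0.965, pairs of N2 arrays at 0.942 to 0.960, and pairs across the groups at 0.928 to 0.940. N2 replicate 4 and Wnt underactivation replicate 4, at 0.973, were more alike than any pair of N2 arrays. Probe sets against the 3' and 5' ends of control transcripts are on the array too. The 3' minus 5' signal lay above all N2 arrays in all Wnt overactivation arrays for 4 of 5 such controls (Actin, Gapdh, gly14 and Ubiquitin, by 0.22 to 1.07 on the log2 scale) and was 0.62 lower on average for catalase, whose arrays overlapped. The number of arrays limits the precision, and the p-values measure the spread between these samples.

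At an adjusted p under 0.05 (limma, Benjamini-Hochberg over all probe sets), 196 probe sets were higher in Wnt overactivation than in N2, 0.869% of those tested, and 156 were lower, 0.692%. For counts of genes, each of 17118 genes was represented by its brightest probe set. On that basis 167 genes were higher (0.976% of genes) and 102 were lower (0.596%). The arrays of the 2 groups did not overlap for 12.7% of genes on the higher side and 7.83% on the lower side. The median difference over all genes was 0.07. Raised and lowered genes moved by equal amounts, with median differences of 1.75 and -1.75, and differences of at least 4-fold were found for 63 raised and 34 lowered genes. The median signal of the raised genes went from 6.16 in N2 to 8.18, and that of the lowered genes from 7.75 to 5.74.

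**Figure D1:**
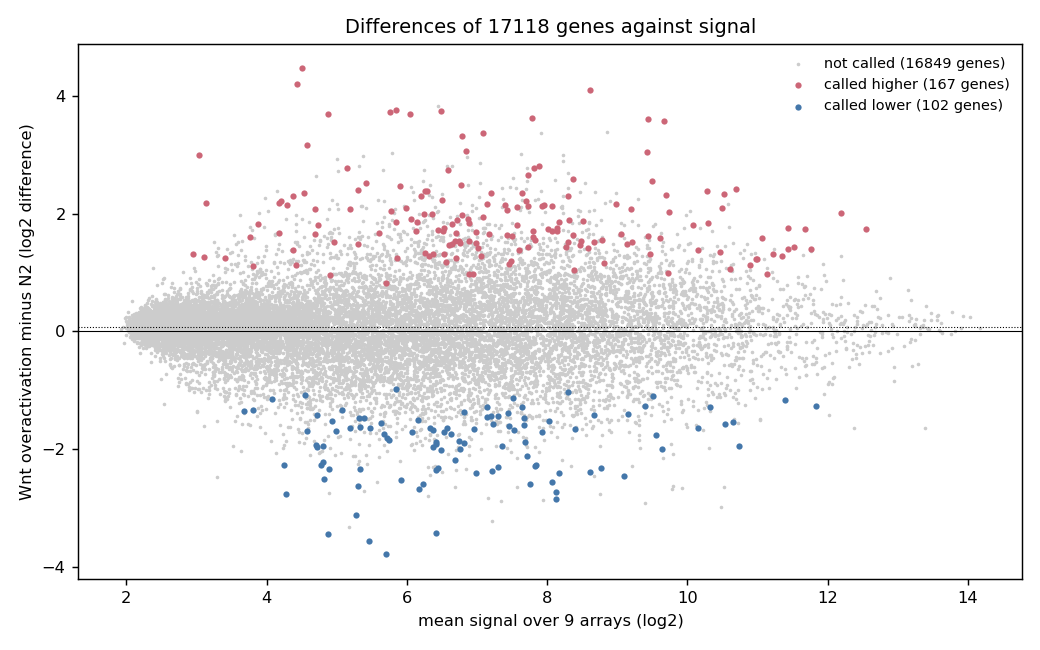
Each point is 1 of 17118 genes, with its mean log2 signal over the 9 arrays on the horizontal axis and the log2 difference, Wnt overactivation minus N2, on the vertical axis. The 167 genes called higher (red) and the 102 called lower (blue) lie over most of the range of signal, and the dotted line is the median difference of 0.07.

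The genes of the transgenes and strain markers were read first, because they check the labels. Arrays are listed below in the order of replicates 1, 3 and 4 for Wnt overactivation and 2, 3 and 4 for N2. bar-1, the beta-catenin that huIs1 expresses, had log2 signals from 9.64 in replicate 3 to 11.75 in replicate 4 of Wnt overactivation, with replicate 1 close to the lower of these, and 9.04, 9.55 and 9.18 in N2. All Wnt overactivation arrays lay above all N2 arrays, but the difference of 1.21 ± 0.48 (SE, n = 3 per group) did not pass the test (adjusted p = 0.235), and replicate 4 was the highest by far. dpy-20, the gene that the huIs1 marker rescues, gave 10.47, 11.05 and 11.19 against 7.47, 8.76 and 8.82, a difference of 2.55 ± 0.44 (adjusted p = 0.0338). ajm-1, which encodes an apical junction protein and is part of the GFP marker, gave 10.53, 9.94 and 10.55 against 8.04, 8.50 and 7.53, a difference of 2.32 ± 0.33 (adjusted p = 0.0235). Its 5 other probe sets differed by -2.07 to 1.55, and none of them passed the test. The third marker gene, unc-30, differed by 1.24 ± 0.64 with overlapping arrays (adjusted p = 0.355), and pab-1, the tagged gene, by -0.33 ± 0.27 (adjusted p = 0.585). pop-1, the target of the other transgene, was at 5.27 in Wnt overactivation, 5.49 in N2 and 10.2 in Wnt underactivation.

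Genes beside the rescuing markers on the chromosome were also high. ZK792.7, the neighbor of dpy-20 on chromosome IV in the RefSeq annotation of WBcel235, had the fourth largest increase of any called gene. It gave 7.61, 7.18 and 8.15 against 3.18, 4.83 and 3.63, a difference of 3.77 ± 0.46 (adjusted p = 0.0182), and in Wnt underactivation, whose transgene has the same marker, 6.66, 5.79 and 5.63. dpy-20 itself was at 9.93, 9.15 and 8.67 in Wnt underactivation, 0.90 above N2 and overlapping it (adjusted p = 0.446 by limma), while ZK792.7 was 2.15 above N2 there. best-2, the gene next to unc-30, was chosen after its values were seen. It gave 7.12, 7.75 and 7.38 against 5.35, 6.09 and 5.76, a difference of 1.68 ± 0.25 (adjusted p = 0.0254). No array of either group overlapped the other for these neighbors. The sources used here do not say how far the marker DNA reaches into them.

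The labels give the cells as vulval precursor and seam cells for every array, N2 included, and defining markers were read against that. By limma 0 of the 7 seam cell markers measured were called, and before adjustment 2 had a p under 0.05, both on the higher side. These were elt-6, a GATA factor of seam cells, at 7.52, 7.51 and 7.25 against 5.97, 6.65 and 5.65 (adjusted p = 0.0955), and its relative egl-18, at 8.03, 7.84 and 7.41 against 5.89, 7.41 and 6.95, which overlapped (adjusted p = 0.276). The second probe sets of elt-6 and egl-18 differed by -0.72 and 0.44, both with overlap (adjusted p = 0.295 and 0.467). The authors report that both genes act downstream of Wnt signaling in larval seam cells. For them a response to Wnt signaling and a larger share of seam cell RNA cannot be told apart. ceh-16, the engrailed factor of seam cells, did not separate the groups (3.92, 3.92 and 3.67 against 6.13, 3.23 and 4.64). The mean signal of the seam markers was 6.51 to 6.71 in Wnt overactivation arrays and 6.04 to 6.31 in N2 arrays. For the 5 body wall muscle markers it was 8.70 to 9.21 against 10.4 to 10.6, with 2 called lower and 4 without overlap. For the 6 intestinal markers it was 5.99 to 6.85 against 7.06 to 7.68, with 1 called lower, and for the 6 neuronal markers 6.37 to 6.87 against 7.47 to 7.76, with 1 called lower. Single markers of these cells lay low in Wnt overactivation, such as egl-21 at 3.83 to 4.25, while unc-54 and myo-3 stayed at 8.31 or more. Others were not lower. The neuronal snb-1 gave 10.24, 10.33 and 10.59 against 9.77, 9.66 and 9.92, without overlap (adjusted p = 0.116). The neuronal unc-119 and intestinal elt-2 differed by 0.22 and 1.31 with overlap. Second probe sets of snb-1 and elt-2 differed by -0.02 and -0.34. Before adjustment 4 neuronal markers were lower and 1 higher at p under 0.05, and 5 intestinal markers were lower and 0 higher. Of the 5 hypodermal and the 5 vulval precursor markers 0 were called by limma (before adjustment 1 was lower and 1 higher at p under 0.05), and the median differences of these 2 lists were -0.20 and -0.21. RMA gives no call of presence, and a smaller share of a cell type and less of its RNA cannot be told apart in such samples.

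The largest increases included genes of the cuticle. col-38, a cuticle collagen, had log2 signals of 10.40, 11.81 and 10.91 in Wnt overactivation and 6.89, 7.47 and 6.47 in N2, a difference of 4.10 ± 0.40 or 17.1-fold (adjusted p = 0.0127). It remained called with any of the 9 arrays left out of the fit. col-49, another cuticle collagen, gave 7.34, 8.81 and 8.39 against 4.50, 4.84 and 4.13, a 12.9-fold difference (adjusted p = 0.0127). In Wnt underactivation these collagens were 0.90 and 0.98 above N2. dpy-6, which encodes a mucin-like protein needed for normal body shape, gave 10.30, 9.29 and 8.85 against 6.39, 5.82 and 5.34, a 12.4-fold difference (adjusted p = 0.0449). Its second probe set differed by 1.52 (adjusted p = 0.179).

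Several of the largest increases were in genes with low signal in N2. The F-box gene fbxa-116 had the largest of all, 4.47 ± 0.72 (adjusted p = 0.0293), from 2.64, 3.41 and 2.33 in N2 to 5.31, 8.14 and 8.35. C06C6.7 rose by 4.20 ± 0.47 (adjusted p = 0.0127), T26E4.4 by 3.72 ± 0.72 (adjusted p = 0.0459) and oac-29, an O-acyltransferase-related gene, by 3.69 ± 0.70 (adjusted p = 0.0439). dod-23, named as a gene downstream of DAF-16, gave 6.82, 7.06 and 6.17 against 3.44, 3.78 and 3.35 (difference 3.16 ± 0.25, adjusted p = 0.0061). In the Wnt underactivation arrays dod-23 was at 3.40, 3.54 and 3.67, within the range of N2, and fbxa-116 and C06C6.7 were 0.67 and 0.24 above N2. Other genes were high in both tagged strains. C35C5.9 gave 11.57, 9.83 and 11.07 against 7.49, 7.07 and 7.08 in N2 (adjusted p = 0.0188) and 9.90, 9.90 and 10.98 in Wnt underactivation, and spig-15 was 3.57 above N2 in Wnt overactivation (adjusted p = 0.0314) and 2.80 above it in Wnt underactivation. tag-164 and Y43C5A.3 completed the largest increases, at 3.37 ± 0.44 and 3.75 ± 0.47 (adjusted p = 0.0188 for both).

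The largest decreases reached a similar size. F16C3.1 fell by 3.79 ± 0.53, or 13.8-fold (adjusted p = 0.0225), from 8.36, 8.33 and 7.34 in N2 to 5.42, 4.06 and 3.18. ZK1240.8 fell by 3.56 ± 0.54 (adjusted p = 0.0254) and C46F2.1 by 3.43 ± 0.49 (adjusted p = 0.0235). rsks-1, the S6 kinase that acts below the TOR kinase, gave 4.05, 3.56 and 3.01 against 7.11, 7.89 and 5.95, a difference of -3.45 ± 0.51 (adjusted p = 0.0254), and was also low in Wnt underactivation at 3.97, 4.74 and 3.65. cbd-1, a chitin-binding protein of the eggshell, gave 4.35, 3.44 and 3.80 against 7.80, 6.52 and 6.61, an 8.65-fold difference (adjusted p = 0.0254). twk-13, a potassium channel subunit, fell by 2.63 ± 0.49 (adjusted p = 0.0427), and W06F12.2 and Y32F6B.1 by 2.59 ± 0.34 and 2.67 ± 0.37 (adjusted p = 0.0188 and 0.0225). None of these genes had overlapping arrays on its brightest probe set, but the second probe set of cbd-1 differed by -1.46 with overlap (adjusted p = 0.208). ZK1240.8 was 0.63 below N2 in Wnt underactivation, whereas F16C3.1 and C46F2.1 were 3.12 and 3.51 below it.

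**Figure D2:**
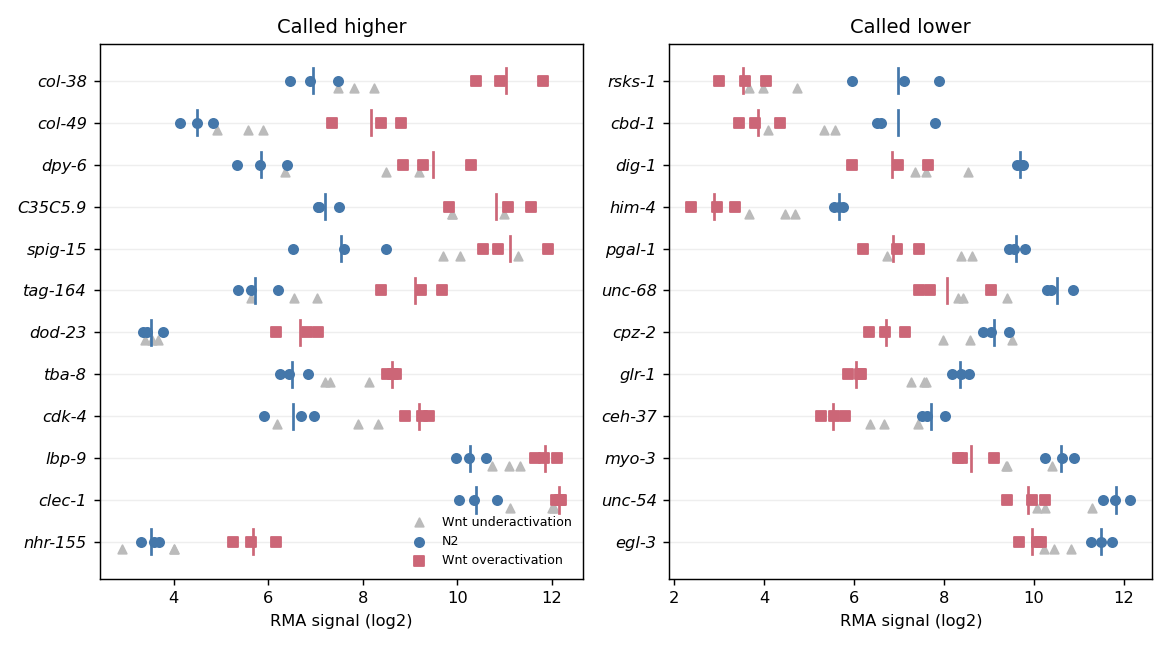
RMA signals (log2) of 12 genes called higher and 12 called lower in every array, with N2 as circles, Wnt overactivation as squares and Wnt underactivation as triangles set slightly below, and with vertical lines at the means of N2 and Wnt overactivation (n = 3 each). For every gene shown the squares and the circles do not overlap, and most triangles lie at either group or between them.

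Among gene groups, the epidermis held calls on the higher side. Of 403 measured genes in the epidermal lists, 11 were called higher (against 0.976% of all genes), ajm-1 of the GFP marker among them, and 0 lower by limma, and their median difference was 0.34, against 0.07 over all genes. Unadjusted, 108 were higher and 13 lower. At the same unadjusted p under 0.05, 9.75% of all genes were higher and 7.57% lower. The epidermal lists were not alike. Vulval genes had a median of 0.03, cuticlins and zona pellucida proteins 0.09 and astacin metalloproteases 0.10. Apical junctions had 0.19, hedgehog-related ligands 0.24 and patched-related proteins 0.45. The 146 cuticle collagens had 5 called higher (col-38, col-49, col-20, col-77 and col-164), 0 called lower by limma and 3 on the lower side with p under 0.05 before adjustment. For 63 collagens (43.2%, against 12.7% of all genes) every Wnt overactivation array was above every N2 array, and for 1 every array was below. The median over collagens was 0.51, and by array it was 0.32, 0.77 and 0.46 above the N2 mean. col-20 was at 4.35, 4.29 and 4.45 against 3.25, 3.50 and 3.02 (difference 1.11 ± 0.21, adjusted p = 0.0459). col-77 gave 9.51, 10.27 and 9.52 against 8.29, 8.50 and 7.98 and was not raised in Wnt underactivation (8.46, 7.65 and 7.77). Near-identical collagen copies can share probes, so single collagens are less certain than the group.

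Molting, seam and defense genes had high medians but few calls. Of all genes, 0.976% were called higher and 0.596% lower. The 31 genes of collagen processing and molting had a median of 0.66 and 0 calls in limma. By array the median was 0.26, 1.25 and 0.58, against up to 0.34 in N2, and it was 0.36 without Wnt overactivation replicate 3 and 1.02 without N2 replicate 4. Before adjustment 11 of them had p under 0.05 on the higher side and 0 on the lower side. nhr-25, a nuclear receptor needed for molting, gave 7.63, 8.41 and 8.39 against 6.80, 7.32 and 6.79 (adjusted p = 0.067), and its second probe set differed by -0.60 (adjusted p = 0.456). bus-8B, a glycosyltransferase gene of the epidermis, was named after its values were seen. The lists of molting and seam cell genes hold it as bus-8, which has no value under that name, and it is not in their counts, to which it would add 1 call each. It gave 8.10, 9.37 and 9.32 against 6.50, 6.92 and 6.96 (difference 2.14 ± 0.39, adjusted p = 0.0401), and its second probe set differed by -0.21 (adjusted p = 0.881). The 14 seam cell genes had a median of 0.97, and 0.67, 0.72 and 0.97 by array, while in Wnt underactivation it was 0.04. Of the genes counted in this list only clc-6 was called, and the median was 0.43 when all probe sets of a gene were averaged. The 18 epidermal antimicrobial peptides had a median of 0.96 (0.61 without N2 replicate 4), with the caenacin cnc-3 called at 11.94, 12.57 and 12.27 against 10.56, 10.83 and 11.22 (adjusted p = 0.0338), and it was as high in Wnt underactivation (12.27, 11.94 and 12.23). The hedgehog-related ligands, 53 in number, had 1 called, grl-20, at 5.44, 6.09 and 6.31 against 3.98, 4.85 and 3.99 (adjusted p = 0.042). The second probe set of grl-20 differed by 0.22 with overlap (adjusted p = 0.624).

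Genes that hold the epidermis together included further increases. clc-6, a claudin-like membrane protein, gave 10.37, 10.66 and 10.34 against 9.16, 8.58 and 8.89 (difference 1.58 ± 0.29, adjusted p = 0.0399), and its other probe sets differed by 0.88 and 0.15 without a call. ifb-1, an epidermal intermediate filament, gave 11.31, 11.66 and 11.77 against 10.40, 10.61 and 10.03 (adjusted p = 0.0431), and pat-12, a hemidesmosome protein, 9.91, 9.59 and 10.25 against 8.52, 8.20 and 8.46 (adjusted p = 0.0459). vab-10, the spectraplakin of the same structure, was at 9.63, 8.64 and 9.08 against 10.54, 10.40 and 10.99, lower without overlap but short of the threshold (adjusted p = 0.0805), and its other probe sets differed by -1.40 to 1.25. The 9 hemidesmosome genes had 2 called higher and 0 called lower by limma, against 0.976% and 0.596% of all genes. Their median was 0.52, and it was 0.80 without Wnt overactivation replicate 3 and 0.27 when all probe sets of a gene were averaged. Second probe sets did not follow the first for every gene, with pat-12 at -1.04 and 0.34 (adjusted p = 0.155 and 0.357). That of ifb-1 differed by 0.74 with overlap (adjusted p = 0.536).

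Muscle and its matrix held calls on the lower side. Of 80 measured genes in these lists, 0 were called higher by limma and 8 lower (against 0.976% and 0.596% of all genes), and the median was -0.61. Before adjustment 2 had p under 0.05 on the higher side and 33 on the lower side. The 2 were tnc-2, a pharyngeal troponin C, and unc-23, at differences of 1.85 ± 0.55 and 1.38 ± 0.35 (adjusted p = 0.127 and 0.089), both without overlap. Of the 8 pharyngeal muscle genes 0 were called by limma in either direction, and before adjustment only tnc-2 had p under 0.05. unc-54, the major myosin heavy chain of body wall muscle, had signals of 10.24, 9.40 and 9.95 against 11.52, 11.79 and 12.14 in N2, a difference of -1.96 ± 0.36 or 3.88-fold (adjusted p = 0.0411). myo-3, the second myosin of the same filaments, gave 9.10, 8.31 and 8.39 against 10.24, 10.63 and 10.90 (3.97-fold, adjusted p = 0.0338). Both were lower in every Wnt overactivation array than in any N2 array. The 20 sarcomere genes had a median of -0.68, with 10 of the 20 (against 7.83% of all genes) without overlap on the lower side and 0 on the higher side. By array the sarcomere median was -0.30, -1.09 and -0.80, so replicate 1 was the closest to N2. unc-98, a zinc finger protein of the attachment sites, gave 5.20, 4.65 and 4.14 against 6.20, 6.18 and 6.06 (adjusted p = 0.0397).

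Of 14 genes of muscle excitation, 2 were called lower and 0 higher by limma, against 0.596% and 0.976% of all genes. Both called genes were calcium channels. unc-68, the ryanodine receptor that releases stored calcium, gave 7.68, 7.44 and 9.04 against 10.38, 10.86 and 10.30, a difference of -2.45 ± 0.45 (adjusted p = 0.0411). Its other probe sets differed by -0.70 and 0.05 and were not called. egl-19, the L-type calcium channel, gave 7.38, 6.35 and 7.11 against 8.37, 8.68 and 8.83 (difference -1.68 ± 0.30, adjusted p = 0.0374), and its second probe set by -1.61 (adjusted p = 0.0993). The 20 genes of the basement membrane and matrix included 3 called lower (against 0.596% of all genes) and had a median of -0.86. Before adjustment 11 of them had p under 0.05 on the lower side and 0 on the higher side. him-4, the hemicentin of extracellular matrix, gave 3.35, 2.95 and 2.38 against 5.76, 5.67 and 5.55 (6.80-fold, adjusted p = 0.0178). dig-1, a giant matrix protein that holds neurons in place, gave 7.63, 5.95 and 6.97 against 9.61, 9.74 and 9.71 (7.15-fold, adjusted p = 0.0254). epi-1, a laminin alpha chain, gave 9.92, 9.31 and 9.90 against 10.74, 11.23 and 11.01 (2.44-fold, adjusted p = 0.0354). All of these genes were without overlap on their brightest probe sets, but the second probe set of dig-1 overlapped (difference -0.77, adjusted p = 0.416).

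**Figure D3:**
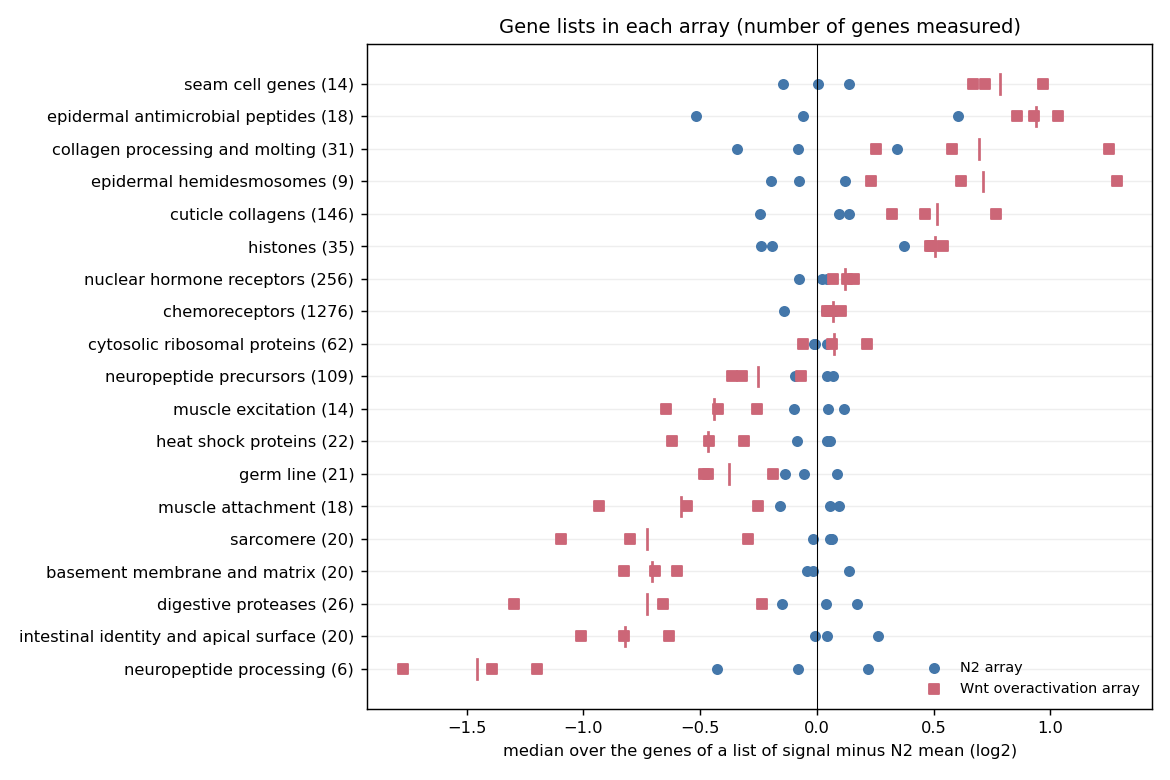
For 19 gene lists, the median over the genes of a list of the signal minus the N2 mean (log2) in each N2 array (circles) and each Wnt overactivation array (squares), with the mean of the squares as a vertical line and the number of genes in parentheses. The epidermal lists shown lie to the right, up to 1.28 for epidermal hemidesmosomes in replicate 4. The muscle, matrix, gut and neuropeptide lists shown lie to the left, down to -1.77 for neuropeptide processing in replicate 3. Not every epidermal or gut list left out of the figure lay on these sides.

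Of 1569 neuronal genes measured, 8 were called lower and 2 higher, shares below the 0.596% and 0.976% of all genes, and the median of the whole class was 0.07. Several of the decreases were in peptide signaling. egl-3, the proprotein convertase that cuts neuropeptide precursors, gave 10.06, 9.66 and 10.16 against 11.27, 11.48 and 11.74 (2.90-fold, adjusted p = 0.0254). pgal-1, which completes the amidation of peptides, gave 7.45, 6.95 and 6.21 against 9.56, 9.44 and 9.79 (6.61-fold, adjusted p = 0.0401). egl-21, the carboxypeptidase of the same route, lay at 4.25, 3.83 and 4.07 against 6.13, 6.62 and 7.54, just short of the threshold (adjusted p = 0.0536). All 6 genes of neuropeptide processing were lower with p under 0.05 before adjustment, 2 of them were called, and their median was -1.43. In Wnt underactivation the median was -1.09.

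Of 109 neuropeptide precursors 4 were called lower (against 0.596% of all genes) and 0 higher by limma, and the median was -0.26. Before adjustment 28 had p under 0.05 on the lower side and 10 on the higher side. The list shares members with the epidermal antimicrobial peptides, and the largest increase in both lists was 3.01. The median was -0.11 without Wnt overactivation replicate 4, and -0.40, -0.42 and -0.41 without N2 replicate 2, N2 replicate 3 or Wnt overactivation replicate 1. flp-19, an FMRFamide-like peptide, gave 10.37, 9.41 and 9.55 against 11.40, 11.27 and 11.37 (adjusted p = 0.0303), and nlp-53 gave 5.41, 6.46 and 6.15 against 7.68, 8.96 and 8.49 (adjusted p = 0.0346). The second probe set of flp-19 differed by -0.63 with overlap (adjusted p = 0.489). nlp-21 fell by 1.35 ± 0.25 (adjusted p = 0.0412), and pdf-1, the pigment dispersing factor precursor, by 1.55 ± 0.30 (adjusted p = 0.0449). glr-1, an AMPA-type glutamate receptor of command interneurons, gave 5.86, 6.14 and 6.16 against 8.38, 8.17 and 8.54, a difference of -2.31 ± 0.19 or 4.96-fold (adjusted p = 0.0061). It was the only lowered gene that stayed called with any of the 9 arrays left out, and its second probe set differed by -2.61 (adjusted p = 0.018). sol-2, an auxiliary subunit of GLR-1 receptors chosen after its values were seen, gave 6.42, 7.25 and 6.82 against 8.93, 8.10 and 8.24 (adjusted p = 0.0441). unc-76, which is needed for axon outgrowth, gave 8.56, 8.71 and 9.23 against 10.37, 10.57 and 10.83 (adjusted p = 0.0401), and its second probe set differed by -0.10.

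Chemoreceptors made up most of the neuronal lists, and 2 of 1276 were called higher, a smaller share than the 0.976% of all genes. srw-93 gave 4.03, 5.37 and 5.73 against 2.03, 2.02 and 2.08 (adjusted p = 0.0188), and its chromosomal neighbor srw-92 gave 4.04, 3.88 and 3.66 against 2.61, 2.63 and 2.41 (adjusted p = 0.0188). Wnt underactivation was at the level of N2 for both, with differences of 0.00 and -0.09. Because these receptors are related in sequence, shared probes were possible, and the 2 genes may not count as separate. Ion channels were read from lists drawn up after the values were seen. Of 9 voltage-gated calcium and sodium leak channel genes 2 were called lower (egl-19 and unc-80, against 0.596% of all genes), 0 higher, and their median was -0.73. unc-80, a subunit of the sodium leak channel complex, gave 6.57, 6.45 and 6.28 against 7.55, 8.40 and 7.74 (adjusted p = 0.0348).

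The intestine gave 3 calls in each direction among 564 genes, near or below the 0.976% higher and 0.596% lower of all genes, and before adjustment 29 had p under 0.05 on the higher side and 62 on the lower side. On the lower side, ges-1, the gut esterase, gave 5.38, 5.22 and 4.32 against 7.04, 6.30 and 6.70 (3.26-fold, adjusted p = 0.0459), and in Wnt underactivation it was at 6.20, 6.86 and 6.66. cpz-2, a cathepsin Z, gave 6.68, 7.12 and 6.34 against 8.86, 9.03 and 9.45 (5.27-fold, adjusted p = 0.0293), again with Wnt underactivation near N2 (7.98, 9.51 and 8.59). The list of intestinal identity and apical surface, 20 genes, had a median of -0.94. Of these, 10 were without overlap on the lower side and 0 on the higher side, against 7.83% and 12.7% of all genes. The 26 digestive proteases had a median of -0.86. The median of the whole intestinal class was 0.04. C-type lectins and UDP-glucuronosyltransferases each had a median of 0.08, lysozymes and saposin-like proteins -0.25 and the 5 vitellogenins 0.56. cyp-13A6, a cytochrome P450, fell by 1.43 ± 0.23 (adjusted p = 0.0286). On the higher side, the lectin clec-1 gave 12.08, 12.20 and 12.19 against 10.03, 10.35 and 10.84 (3.36-fold, adjusted p = 0.0326). The fatty acid binding proteins lbp-9 and lbp-4 were raised as well, lbp-9 at 12.12, 11.64 and 11.83 against 9.97, 10.26 and 10.61 (adjusted p = 0.0254) and lbp-4 by 1.70 ± 0.31 (adjusted p = 0.0401).

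Signaling and transcription genes were called in both directions, 8 higher and 3 lower of 426, against 0.976% and 0.596% of all genes. All 8 increases were nuclear hormone receptors, of which 256 were measured, 0 were called lower by limma and 11 lay on the lower side with p under 0.05 before adjustment, and the receptors' median was 0.14 (0.06 without N2 replicate 4). nhr-97 gave 9.10, 9.17 and 9.27 against 8.05, 7.76 and 7.46 (adjusted p = 0.0254), and its second probe set differed by 0.80 (adjusted p = 0.526). nhr-155 gave 6.16, 5.26 and 5.63 against 3.59, 3.68 and 3.32 (adjusted p = 0.0293) and was at 4.01, 2.90 and 4.01 in Wnt underactivation. nhr-237 went the other way between the tagged strains, with 6.74, 6.82 and 7.48 against 5.49, 5.75 and 5.20 in N2 (adjusted p = 0.0338) and 7.97, 7.43 and 7.83 in Wnt underactivation. The 3 decreases were rsks-1, sos-1 and ceh-37. sos-1, the exchange factor that activates Ras, gave 6.38, 5.47 and 6.33 against 7.85, 8.26 and 7.31 (adjusted p = 0.0439), and ceh-37, an OTX homeobox factor, 5.80, 5.55 and 5.27 against 7.51, 7.63 and 8.02 (adjusted p = 0.0205). The second probe set of ceh-37 was called lower as well, by 1.55 (adjusted p = 0.0303). That of sos-1 differed by -0.86 with overlap (adjusted p = 0.497).

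Components of the Wnt pathway itself were not called. Of 13 ligands and receptors and 16 components inside the cell, 0 passed in either direction by limma. Before adjustment 1 and 3 of them had p under 0.05 on the higher side and 3 and 0 on the lower side, and the medians were -0.17 and -0.20. Without N2 replicate 4 the first was 0.02, and without N2 replicate 2 the second was 0.05. pry-1, the Axin that is also a known Wnt target, gave 6.57, 6.01 and 7.69 against 4.89, 4.21 and 5.62, without overlap but with an adjusted p of 0.149, and was 0.16 above N2 in Wnt underactivation. mab-5, the Hox gene that Wnt signaling turns on in migrating neuroblasts, gave 7.58 or more in every array against 6.06, 5.79 and 5.65 (difference 1.97 ± 0.50, adjusted p = 0.0886). lin-31, a forkhead factor of vulval precursor cells, gave 7.43, 7.80 and 7.67 against 5.98, 6.42 and 6.13 (adjusted p = 0.0573). On the lower side lay lin-14, an early larval timing gene, at 8.05, 7.48 and 8.40 against 8.91 or more in every N2 array (difference -1.61 ± 0.33, adjusted p = 0.0524). These 4 genes did not overlap between groups, and none passed the test. Second probe sets of pry-1, mab-5 and lin-31 differed by 1.48, 0.46 and 0.50, all with overlap. Of the 10 heterochronic genes 5 lay lower and 2 higher with p under 0.05 before adjustment, and their median was -0.48 (-0.14 without N2 replicate 4).

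Cell cycle, cytoskeleton and small RNA genes gave single increases. cdk-4, the G1 kinase that pairs with cyclin D, gave 9.40, 9.25 and 8.90 against 6.69, 6.98 and 5.92 (6.30-fold, adjusted p = 0.0485). cki-1, an inhibitor of G1 kinases, also lay above N2 in every array (9.53, 8.79 and 9.48 against 6.81, 7.63 and 7.04) with an adjusted p of 0.0792. The second probe set of cki-1 differed by 0.62 with overlap (adjusted p = 0.29). tba-8, an alpha-tubulin, gave 8.52, 8.65 and 8.71 against 6.44, 6.25 and 6.85 (4.33-fold, adjusted p = 0.0188). tbb-6, a beta-tubulin, gave 6.05, 5.82 and 5.66 against 4.10, 4.60 and 3.89 (adjusted p = 0.0254) and was not raised in Wnt underactivation (4.29, 4.02 and 3.73). vsra-1, an Argonaute, rose by 2.74 ± 0.50 (adjusted p = 0.0399), and sucl-2, a subunit of succinyl-CoA ligase, by 2.35 ± 0.44 (adjusted p = 0.0426). The histone gene his-39 rose by 2.09 ± 0.38 (adjusted p = 0.0401), and the 35 histone genes, many of them near copies, had a median of 0.45, and before adjustment 16 had p under 0.05 on the higher side and 1 on the lower side.

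Smaller families added further calls on both sides. The nematode-specific peptides nspe-5 and nspe-3 rose by 1.66 ± 0.25 and 1.25 ± 0.22 (adjusted p = 0.0254 and 0.0371), from signals below 4 in N2, and the transthyretin-related gene ttr-56 by 1.83 ± 0.28 (adjusted p = 0.0254). Among 310 F-box genes 1 was raised (fbxa-116), a smaller share than the 0.976% of all genes, and 1 was lowered (against 0.596%), fbxa-6, by 1.64 ± 0.32 (adjusted p = 0.0461). wht-1, an ABC transporter gene, gave 5.12, 4.60 and 5.60 in Wnt overactivation, 6.64, 7.19 and 6.61 in N2 and 7.85, 7.62 and 7.51 in Wnt underactivation (Wnt overactivation minus N2, -1.70 ± 0.28, adjusted p = 0.0303). C45G9.6 fell by 1.88 ± 0.30 (adjusted p = 0.0293) and was 0.32 below N2 in Wnt underactivation. Other probe sets of wht-1 differed by -1.32 and -0.43 and that of C45G9.6 by -1.14, and none of them was called. The heat shock proteins, 22 in number, had 0 calls by limma, 5 lower and 0 higher with p under 0.05 before adjustment and a median of -0.39, and hsp-16.2, whose promoter drives the transgene, was at 9.76, 10.23 and 11.23 against 9.82, 11.22 and 11.64.

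Further sets of raised genes were noticed after the values were seen and encode parts of general nuclear machinery. Of 13 Sm and LSm proteins, the core of spliceosomal and mRNA decay particles, 4 were called higher and 0 lower (against 0.976% and 0.596% of all genes), with a median of 1.02. snr-7 gave 8.15, 6.79 and 6.74 against 4.62, 4.84 and 5.06 (5.22-fold, adjusted p = 0.0275), and lsm-1 gave 9.90, 9.91 and 10.07 against 8.88, 8.32 and 8.77 (adjusted p = 0.0254). snr-5 and lsm-4 rose by 1.05 ± 0.18 and 1.86 ± 0.32 (adjusted p = 0.0322 and 0.0332). Of 20 subunits of RNA polymerase II and general transcription factors, 4 were called higher (rpb-7, rpb-12, gtf-2A2 and gtf-2H5) and 0 lower, with a median of 0.96. The same shares of all genes apply to this set. In Wnt underactivation the medians of these 2 sets were 0.86 and 0.67. Both sets hold short genes, with median lengths from start to end of 0.688 and 1.16 kb against 2.19 kb for all genes. mml-1 and mxl-2, which encode the Mondo factor and its Max-like partner, rose by 1.46 ± 0.26 and 1.33 ± 0.22 (adjusted p = 0.0362 and 0.0303), but the second probe set of mml-1 differed by -0.63 (adjusted p = 0.539). The 12 SWI/SNF chromatin remodeling genes split, with 3 called higher and 1 lower (against 0.976% and 0.596% of all genes) and a median of -0.15. snfc-5, smrd-1 and bcl-7 rose by 1.24 ± 0.21, 1.15 ± 0.19 and 1.54 ± 0.27 (adjusted p = 0.0333, 0.0303 and 0.0348). swsn-7 fell by 2.33 ± 0.37 (adjusted p = 0.0293). Second probe sets of snfc-5, smrd-1 and swsn-7 differed by 0.16, -0.09 and -0.59, all with overlap.

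Several lowered genes outside the lists were also chosen after their values were seen. tax-6, the catalytic subunit of calcineurin, gave 7.60, 7.02 and 8.42 against 9.92, 9.82 and 10.46 (5.23-fold, adjusted p = 0.0351), and kin-1, the catalytic subunit of protein kinase A, 5.48, 5.82 and 5.33 against 7.40, 6.78 and 6.95 (adjusted p = 0.0348). met-1, a histone H3 lysine methyltransferase, gave 6.72, 6.58 and 7.49 against 9.68, 9.46 and 9.30 (5.88-fold, adjusted p = 0.0188). prp-8, a core splicing factor, gave 6.22, 5.92 and 6.28 against 8.62, 7.86 and 7.62 (adjusted p = 0.0294), and cla-1, an active zone protein of synapses, 6.73, 6.61 and 7.51 against 9.08, 9.70 and 8.89 (adjusted p = 0.0267). None of these genes overlapped between groups on its brightest probe set. The other probe sets of kin-1 differed by -1.28 to -0.29 and that of cla-1 by -2.31, and none of them was called.

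Raised genes were short and lowered genes long. The span of a gene, from its start to its end with introns in the WBcel235 annotation, had a median of 1.40 kb for raised genes, 4.64 kb for lowered genes and 2.19 kb for all genes. Genes were divided by span into 5 groups of equal size, and only genes with a mean signal above the median of all probe sets were read. Of the shortest group 68 of 1532 (4.44%) were called higher and 6 (0.392%) lower. In the longest group 18 of 2318 (0.777%) were higher and 44 (1.90%) lower. The median difference was 0.34, 0.15, 0.03, -0.04 and -0.15 from the shortest group to the longest. By array, the shortest group lay 0.43, 0.38 and 0.21 above the N2 mean in Wnt overactivation and between -0.06 and 0.13 in N2. The longest group lay 0.20, 0.18 and 0.04 below it in Wnt overactivation and between -0.09 and 0.07 in N2, so replicate 4 overlapped N2 there. In Wnt underactivation the medians of the shortest and longest groups were 0.30 and -0.12. Exceptions in direction included neuropeptide precursors (median span 0.969 kb, median difference -0.26) and digestive proteases (1.62 kb and -0.86). Among lists of longer genes they included seam cell genes (4.03 kb and 0.97), collagen processing and molting (4.89 kb and 0.66) and epidermal hemidesmosomes (9.43 kb and 0.52). The 3' minus 5' signals of 4 of the 5 control transcripts, given above, were higher in the same Wnt overactivation arrays, and that of catalase was not. In Wnt underactivation replicate 4 the shortest and longest groups lay 0.34 above and 0.16 below the N2 mean. Its 3' minus 5' signals of Actin (0.903), Gapdh (2.87) and catalase (7.03) were within the N2 range. Those of gly14 (-1.22) and Ubiquitin (7.02) were above all N2 arrays. The part of these signals in the pattern was not tested.

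**Figure D4:**
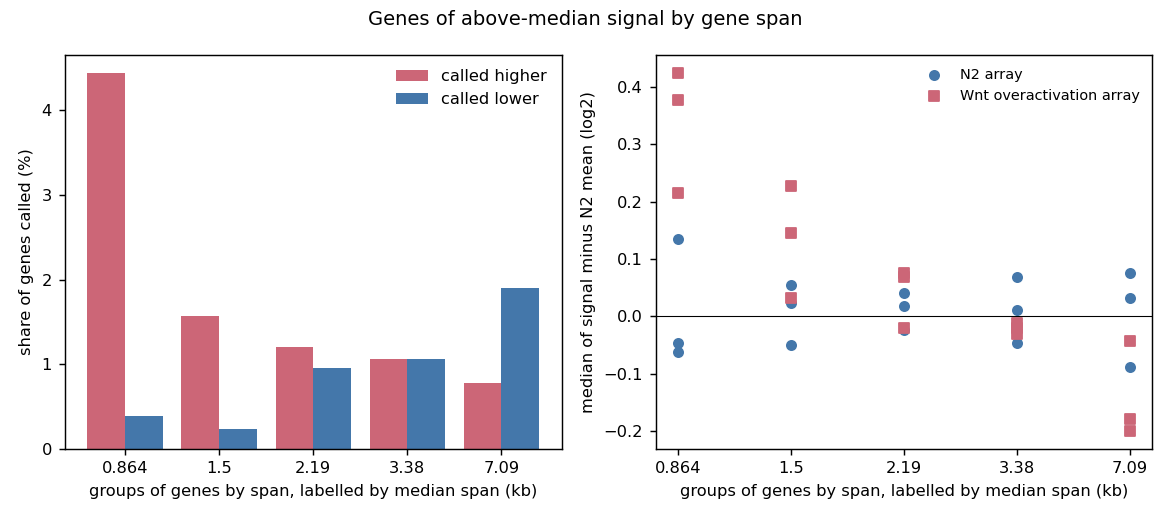
Genes with above-median signal in 5 equal groups of all genes by gene span, labelled by the median span of each group in kb. Left, the share called higher (red) or lower (blue) in percent, 4.44% and 0.392% in the shortest group and 0.777% and 1.90% in the longest. Right, the median of signal minus the N2 mean (log2) in each N2 array (circles) and each Wnt overactivation array (squares).

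The called genes were read once more beside Wnt underactivation, which shares the tag and the markers and, in its own comparison, the N2 arrays. Over the 167 raised genes the median of the signal minus the N2 mean was 1.70, 1.82 and 1.75 in the Wnt overactivation arrays and 1.30, 0.93 and 1.33 in the Wnt underactivation arrays. Over the 102 lowered genes it was -1.76, -1.91 and -1.75 in Wnt overactivation and -1.25, -0.86 and -1.19 in Wnt underactivation. None of the called genes passed the test in the comparison of Wnt underactivation with N2. Of all 17118 genes, 0 passed there in the direction of their Wnt overactivation difference, so this does not set the called genes apart. By limma pop-1, 4.73 above N2 in Wnt underactivation, had an adjusted p of 0.0799 there. In the direct comparison of the tagged strains, 1 of all 17118 genes passed, the called gene dod-23, which was 3.15 higher in Wnt overactivation (adjusted p = 0.017).

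The counts of calls rested on single arrays. With Wnt overactivation replicate 3 left out, 6 probe sets were called higher and 2 lower, and with N2 replicate 2 left out 229 and 265. The other 7 fits gave 53 to 201 higher and 47 to 207 lower. A raised or lowered gene held its call in a median of 3 of the 9 fits, 5 raised genes (C35C5.9, F26E4.2, col-38, dod-23 and rocf-1) and 1 lowered gene (glr-1) held it in all 9, and 16 raised and 5 lowered genes held it in none. Where a called gene had other probe sets, 28 of 40 had the same sign for raised genes (median 0.39) and 33 of 38 for lowered genes (median -0.84), and 4 of each were called.

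**Figure D5:**
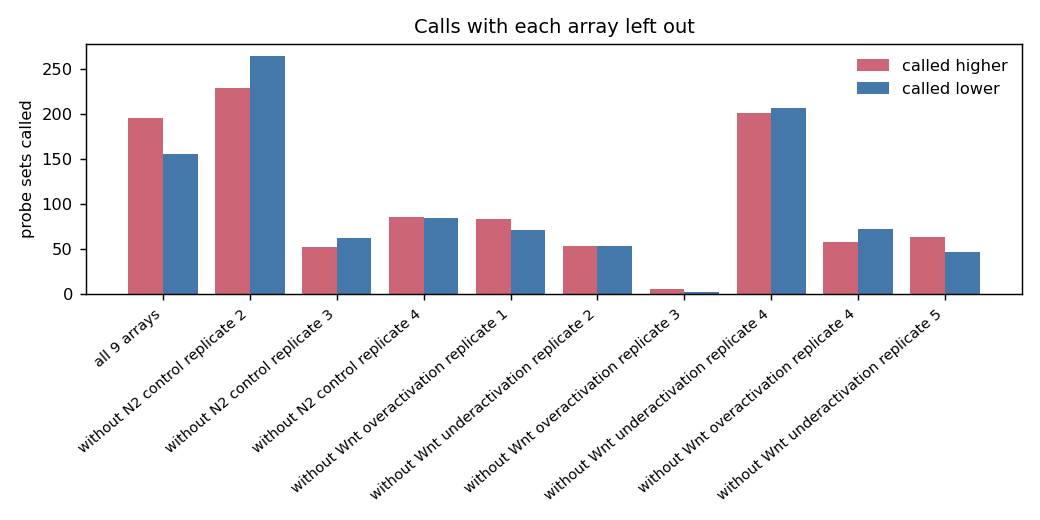
Number of probe sets called higher (red) and lower (blue) in Wnt overactivation against N2 with all 9 arrays and with each array left out in turn. The bars run from 6 and 2 without Wnt overactivation replicate 3 to 229 and 265 without N2 replicate 2.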

How the data were processed

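RNA recovered by mRNA tagging was hybridized to 9 arrays, 3 per strain. The methods describe amplified cDNA, whereas the labels also mention cRNA from total RNA. The authors summarized the arrays by RMA in Partek, and the deposited values are log2 signals per probe set, with versions not given in the sources used here. They were used as deposited. Array controls (77 probe sets) were left out. Of 22548 probe sets, 20766 have 1 gene in the platform annotation, 887 several and 895 none, and names were updated through the RefSeq table of WBcel235. A gene with several probe sets was represented by the one with the highest mean over the 9 arrays.

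limma 3.58.1 in R 4.3.3 fitted 1 mean per group over the 9 arrays (6 residual degrees of freedom), with a two-sided moderated test and Benjamini-Hochberg adjustment, and a call needed an adjusted p under 0.05. The fit was tested on simulated data. Genes were named as follows: the 10 called genes with the largest difference in each direction, without overlap between arrays, and the same among brighter genes; up to 3 called members per list and direction by p, with uncalled members as values; the strain genes; and 5 per direction farthest from Wnt underactivation. The lists, members and rule were chosen with earlier results of these data known. Alternatives covered normalization, dim probe sets, moderation, samples, replicate number, array weights, probe sets and each array left out.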

Additional observations from a re-analysis of the deposited data

How the results depend on the processing

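Counts of called probe sets, 196 higher and 156 lower, depended on the fit. Without moderation, the ANOVA named in the methods, 0 and 3 passed after Benjamini-Hochberg adjustment (1884 and 1582 at an unadjusted p of at most 0.05), and with only the Wnt overactivation and N2 arrays 36 and 34 passed. Leaving out 1 array gave 6 to 229 higher and 2 to 265 lower. Whether the replicate numbers shared by the labels mark a shared batch cannot be told from so few pairs. The 5 same-numbered pairs of deviations correlated at -0.088 to 0.234 and the others at -0.197 to 0.211. The highest value, 0.234, was that of N2 replicate 4 with Wnt underactivation replicate 4. With the number as a fixed replicate block, limma called 0 higher and 0 lower (1650 and 2001 at an unadjusted p under 0.05), and as a random replicate block 249 and 219. The other alternatives gave 145 to 255 higher and 128 to 231 lower, 255 and 231 of these with the dimmest probe sets left out, and centring each array moved the median of all genes from 0.07 to 0.125.

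Of 115 genes named, 97 were called, and none of them changed direction in 1769 alternative values, the mean over a gene's probe sets among them. Much of this was fixed in advance. The arrays of called genes did not overlap, so leaving out an array could not reverse a sign. A change of moderation leaves the difference as it is. Single other probe sets had the opposite sign for 6 of the 26 called genes with more than 1 (ajm-1, bus-8B, mml-1, pat-12, smrd-1 and unc-68). Among uncalled genes, pop-1 ran from -0.54 without N2 replicate 4 to 0.24 without N2 replicate 3, and was also above 0 without Wnt overactivation replicate 4 (0.01). Of 79 gene lists, the median of 27 changed sign under at least 1 alternative, both Wnt pathway lists among them, and 0 of these were among the 28 with a median beyond 0.3 in size. The cause of these changes was not tested. With 3 arrays per group and no presence call, differences in dim genes were not resolved.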
